A study of Rattus norvegicus with 2 samples.

Results

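The genes that cut the matrix of the arterial wall and the genes that restrain this cutting were followed in single cells of rat carotid arteries. They are 10 of the 32623 genes listed for the series, and they were chosen by symbol: the matrix metalloproteinases Mmp2, Mmp3, Mmp9, Mmp14 and Mmp19, the tissue inhibitors Timp1, Timp2 and Timp3, and the proteoglycan-cutting proteases Adamts1 and Adamts4. The study used 10x Genomics droplet sequencing on male Sprague-Dawley (SD) rats, an outbred strain, which were 8 weeks old at the start and are given as 12 weeks old in the labels. The control group was the left common carotid artery, which had no treatment. The case group was the right common carotid artery of the same rats, taken 28 days after balloon injury, in which a balloon is inflated and pulled back and the external carotid is tied off. Arteries of 2 rats were pooled in 1 library per group, so the spread between animals cannot be seen, and no difference below has a replicate check or a p-value. The control artery was not sham-operated, so the balloon, the ligation and the operation itself cannot be told apart.

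Matrix metalloproteinases are made as inactive precursors, and their activity depends on activation and on inhibitors as well as on RNA. MMP2 and MMP9 are gelatinases that degrade denatured collagen and basement membrane collagen. MMP14 sits in the cell membrane and, with TIMP2 as a bridge, activates the precursor of MMP2, while more TIMP2 blocks MMP14. MMP3, a stromelysin, cuts many matrix proteins and activates other metalloproteinases. TIMP3 binds to the matrix and also inhibits ADAMTS proteases, of which ADAMTS1 and ADAMTS4 cut versican and aggrecan. In injured arteries these proteases are known for letting smooth muscle cells leave their matrix and migrate to the intima.

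The promoters of the genes whose levels differed most between the groups are shown first, since RNA is what was measured here. RefSeq's promoter table for the build GRCr8 matched 6 of the 10 genes, and Mmp2, Mmp9, Mmp14 and Mmp19 were not among them. Each line is the strand of the gene, 5′ to 3′, over the 100 bases before the transcription start, and capitals mark an AP-1 motif (TGANTCA) or a TATA box (TATAAA), searched on both strands.
Mmp3: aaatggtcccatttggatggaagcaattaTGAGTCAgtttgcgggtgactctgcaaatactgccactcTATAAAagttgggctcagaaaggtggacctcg
Adamts1: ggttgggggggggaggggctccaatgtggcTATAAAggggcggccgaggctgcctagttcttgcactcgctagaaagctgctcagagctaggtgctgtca
Adamts4: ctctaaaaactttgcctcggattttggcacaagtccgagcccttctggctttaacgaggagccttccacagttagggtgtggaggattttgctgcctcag
Timp1: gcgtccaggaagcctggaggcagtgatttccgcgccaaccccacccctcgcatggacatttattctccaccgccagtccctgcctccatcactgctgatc
Timp2: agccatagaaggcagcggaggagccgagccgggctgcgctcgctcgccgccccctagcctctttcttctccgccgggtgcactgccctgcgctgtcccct
These stretches lie at chr8:12925181-12925280 on the plus strand for Mmp3, chr11:38427385-38427484 on the minus strand for Adamts1, chr13:86202911-86203010 on the plus strand for Adamts4, chrX:3771123-3771222 on the minus strand for Timp1 and chr10:104089215-104089314 on the minus strand for Timp2. The Mmp3 promoter held an AP-1 motif that begins 71 bases before the start and a TATA box that begins 32 bases before it. The Adamts1 promoter held a TATA box that begins 70 bases before the start. The other stretches, and that of Timp3, held neither motif. Of 33469 rat promoters, 2.47% held this AP-1 motif and 5.78% this TATA box in the same 100 bases. The matches describe letters only.

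The deposited counts held 3321 control and 5656 case barcodes. After filtering, 2718 control cells with 23129175 UMIs (unique molecules counted) and 4913 case cells with 26668802 UMIs were left. The median was 8667 UMIs per control cell and 5133 per case cell, and 21 barcode sequences occurred in both libraries. Cells were put in classes by marker genes. VSMC-like cells (vascular smooth muscle) numbered 1203 in control and 2627 in case, fibroblast-like cells 662 and 1317, endothelial-like cells 59 and 242, macrophage-like cells 44 and 107, and Schwann-like cells 18 and 46. A further 159 and 262 cells held markers of VSMCs and fibroblasts at once, and 573 and 312 were left without a class. Tagln and Dcn were among the markers that set the classes, so their levels follow from the gate and are no check of it. In VSMC-like cells Tagln, a contractile protein gene, had 12740 control and 9191 case UMIs per 1000000 UMIs of the class (CPM). In the fibroblast-like class it had 295 and 206 CPM. Dcn, which encodes the matrix proteoglycan decorin, had 15113 and 12126 CPM in the fibroblast-like class and 218 and 226 CPM among VSMC-like cells. In a joint clustering, made with no correction for library, the control and case cells fell largely into different VSMC-like clusters. The cluster led by Ccn3 and Acta2 held 794 control and 160 case cells, whereas those led by Fos and Cnn1 and by Fstl3 and Flna held 154 and 85 control and 1302 and 1123 case cells. In fibroblast-like cells, a cluster led by Dpt and Cilp held 48 control and 704 case cells. Each group was 1 library, and the median VSMC-like cell had 11705 UMIs in control and 5399 in case. A technical difference between the libraries and a difference between the arteries therefore cannot be told apart in these clusters. Fewer transcripts per cell and a different mix of cells within a class cannot be told apart in sums over a class.

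A level is given as CPM with its exact 95% Poisson interval, which covers counting error only. A gene was compared where both libraries together held at least 50 of its UMIs in a class, and a ratio of case over control past 1.5-fold in either direction was counted. In VSMC-like cells 7 of the 10 genes could be compared, with 1 higher (Adamts4) and 1 lower (Timp2) in case, where 6.22% of 10211 genes were higher and 16.2% lower. In fibroblast-like cells 9 could be compared, with 2 higher (Mmp3 and Mmp19) and 2 lower (Timp1 and Timp2), where 6.64% of 8827 genes were higher and 15.9% lower. In endothelial-like cells 7 could be compared, with 2 higher (Adamts1 and Adamts4) and 0 lower, beside 18.4% and 23.7% of 4029 genes. In macrophage-like cells 5 could be compared, with 1 higher (Timp1) and 0 lower, beside 15.2% and 13.6% of 2604 genes. In the 18 and 46 Schwann-like cells 5 could be compared, with 1 higher (Mmp2) and 1 lower (Timp1), beside 28.6% and 23% of 864 genes. With so few genes compared, nothing about the list as a whole is read from these counts. Taking the first 4 classes in this order, the median log2 ratio of the compared genes was 0.003, 0.06, -0.14 and 0.30, beside -0.14, -0.11, -0.07 and -0.02 for all genes of the class. With TMM scaling, which centres most genes, the higher and lower shares of all genes became 9.41% and 10.6% in VSMC-like, 9.18% and 12.2% in fibroblast-like and 29.9% and 13.4% in endothelial-like cells, and log2 ratios moved up by 0.13, 0.09 and 0.27.

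**Figure D1:**
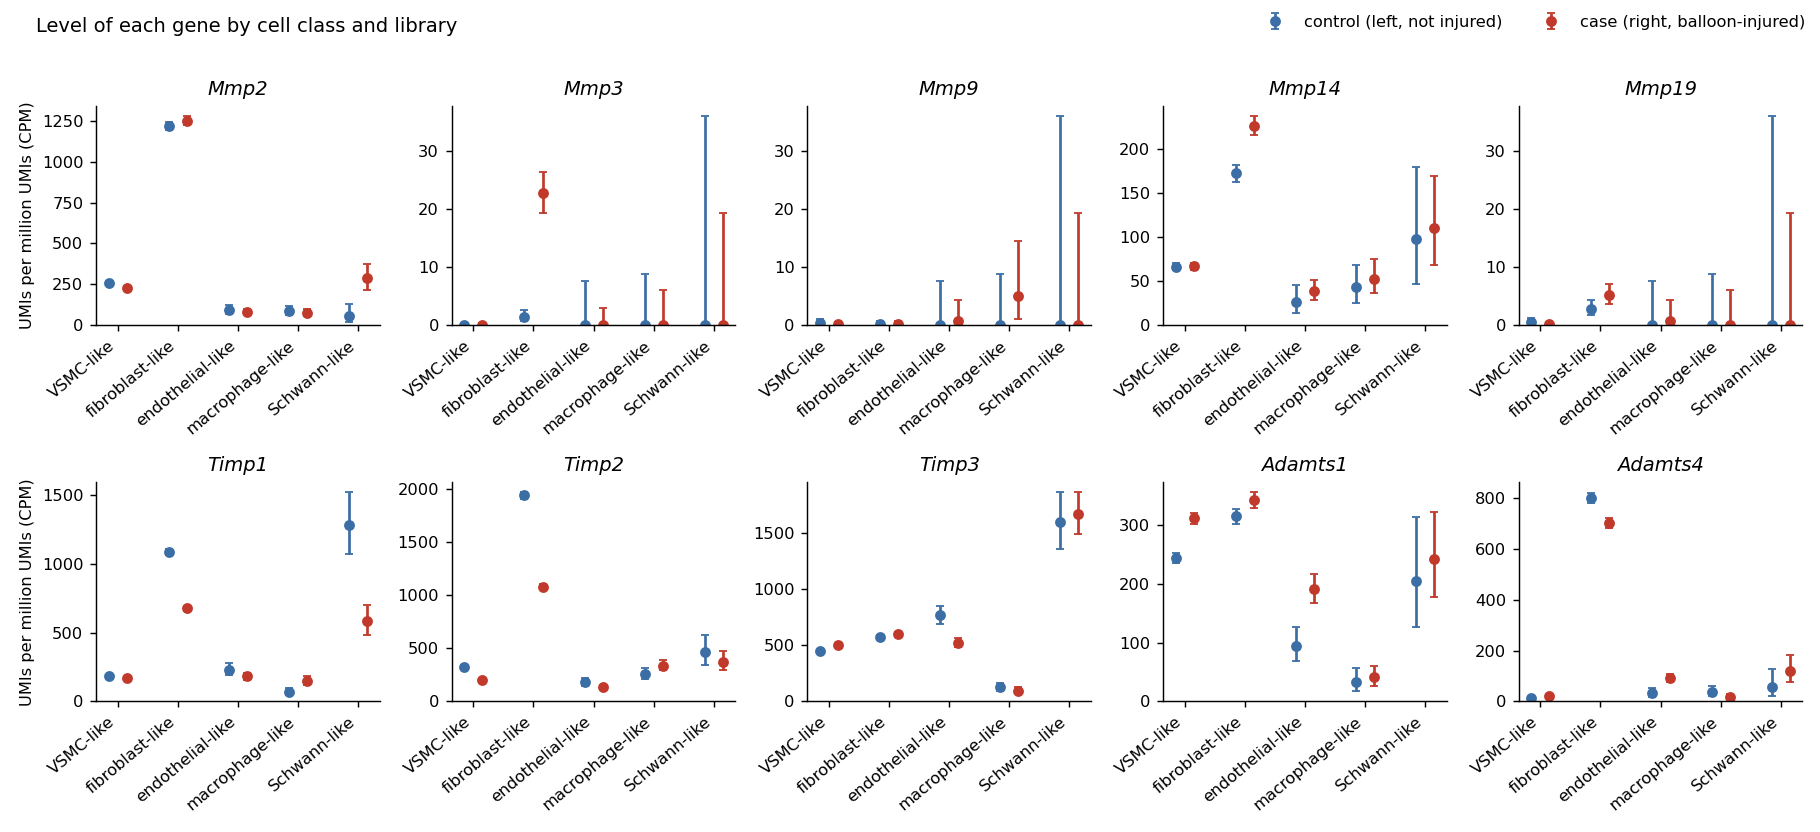
Level of each gene (UMIs per 1000000 UMIs of the class) in 5 cell classes, with 1 point per library (blue control, red case) and bars for the exact 95% Poisson interval. Fibroblast-like cells lie above the VSMC-like, endothelial-like and macrophage-like cells for Mmp2, Mmp14, Timp1, Timp2 and Adamts4 in both libraries, while the Timp3 points of Schwann-like cells, at 1593 and 1664 CPM, rest in control on 2 cells that held 105 of 163 UMIs.

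Among the large classes Mmp2 was highest in fibroblast-like cells, and it differed little between the groups. Fibroblast-like cells held 1216 CPM in control (1191 to 1241) and 1252 CPM in case (1226 to 1278), a log2 ratio of 0.04 (-0.0002 to 0.08). VSMC-like cells held 259 and 225 CPM, a log2 ratio of -0.20 (-0.27 to -0.13). The libraries lay closer to each other than these classes did. Although fewer than VSMC-like cells, fibroblast-like cells supplied 67.2% of all Mmp2 UMIs in control and 64.5% in case, and VSMC-like cells 25.1% and 23.8%. When each cell was thinned to 2000 UMIs, Mmp2 was seen in 82.4% of control and 82.8% of case fibroblast-like cells and in 35.5% and 30.8% of VSMC-like cells. Among endothelial-like cells Mmp2 stood at 90.8 CPM in control (66.0 to 122) and 82.3 CPM in case (67.3 to 99.7), and macrophage-like cells 86.1 CPM (60.3 to 119) and 74.4 CPM (54.3 to 99.5). These pairs of classes overlapped within counting error. The endothelial log2 ratio of -0.14 became -0.72 with each cell weighted equally and -1.08 without the highest doublet scores. In macrophage-like cells 66.7% of the control and 48.9% of the case Mmp2 UMIs lay in 2 cells. Schwann-like cells held 6 control UMIs in 2 cells and 55 case UMIs in 13 cells, or 58.6 CPM (21.5 to 128) and 290 CPM (218 to 377), 4.94-fold higher in case (2.13 to 14). The gene passed the minimum there only through case cells, and 28 of the 55 UMIs lay in 2 cells, so this ratio rests on few cells.

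Fibroblast RNA from broken or doubly loaded droplets was sized with Dcn. If all Dcn of a class came from fibroblast-like cells of the same library, it would bring Mmp2 with it. For VSMC-like cells this was 17.6 CPM of Mmp2 in control and 23.3 CPM in case, beside the 259 and 225 CPM measured there. The same reckoning gave 31.5 and 68.8 CPM for endothelial-like and 73.5 and 46.8 CPM for macrophage-like cells, which is close to the measured 82.3 CPM in case endothelial-like cells and 86.1 CPM in control macrophage-like cells. For Schwann-like cells it gave 145 CPM in control, above the measured level, and 162 CPM in case. VSMC RNA, sized by Tagln in the same way, would bring a further 24.5 and 25.5 CPM of Mmp2 to endothelial-like cells. For macrophage-like cells this was 28.4 and 23.2 CPM. Added to the Dcn values, these exceed the measured Mmp2 in case endothelial-like and control macrophage-like cells. Dcn and Tagln helped set the classes, so such values cannot decide how much RNA was carried over. That part was not tested.

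Mmp14, the membrane-bound activator of MMP2, was also highest in fibroblast-like cells among the large classes, and it was somewhat higher in case there. Its level was 172 CPM in control (163 to 182) and 226 CPM in case (215 to 237), a log2 ratio of 0.39 (0.29 to 0.50) that lay above the counting error but short of 1.5-fold. In VSMC-like cells the levels were 66.4 and 66.5 CPM, a log2 ratio of 0.003 (-0.13 to 0.14). Endothelial-like cells held 13 control and 50 case UMIs, or 26.8 CPM (14.3 to 45.9) and 39.2 CPM (29.1 to 51.7), and these intervals overlapped. Macrophage-like cells, with 43.1 CPM (25.5 to 68.0) and 52.9 CPM (36.2 to 74.7), overlapped both with each other and with the endothelial-like cells. Schwann-like cells held 10 and 21 Mmp14 UMIs, or 97.7 CPM (46.9 to 180) and 111 CPM (68.4 to 169).

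Mmp9, the gelatinase of neutrophils and inflammatory macrophages, was rarely detected. All kept cells together held 7 Mmp9 UMIs in control and 9 in case. Macrophage-like cells held 0 in control, where a count of 0 allows up to 7.18 CPM, and 3 in case, or 4.96 CPM (1.02 to 14.5). VSMC-like cells held 6 and 2. A difference in Mmp9 was not detectable at this depth.

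Mmp3 had the largest ratio of the 10 genes, and few cells carried it. Fibroblast-like cells held 11 Mmp3 UMIs in control and 165 in case, or 1.47 CPM (0.733 to 2.63) and 22.8 CPM (19.4 to 26.5), which is 15.5-fold higher in case (8.44 to 31.6). The gene passed the minimum of 50 UMIs only through its case cells. All 11 control UMIs came from 1 of 662 cells (0.151%, exact 95% interval 0.00382 to 0.839), and the case UMIs came from 23 of 1317 cells (1.75%, 1.11 to 2.61). Case cells were the shallower ones, with a median of 5195 against 11262 UMIs per fibroblast-like cell. The other named classes held almost none: 0 control and 1 case UMI in VSMC-like cells, and 0 in the endothelial-like, macrophage-like and Schwann-like cells of both libraries. The cells between the VSMC and fibroblast gates held 0 in control and 8 in case, all 8 in 1 cell, or 5.18 CPM (2.24 to 10.2).

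**Figure D2:**
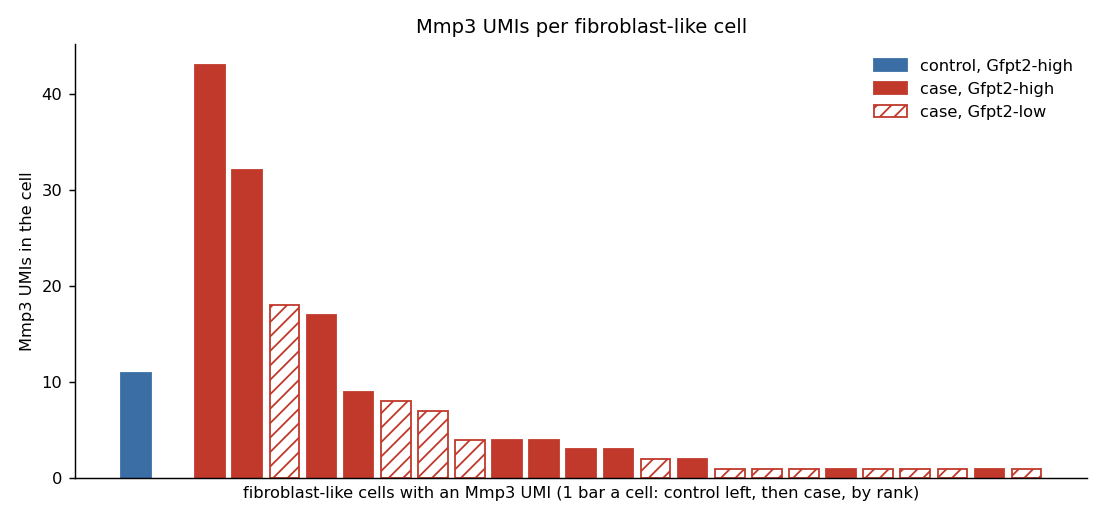
Mmp3 UMIs in each fibroblast-like cell that held any, 1 bar per cell, with the single control cell at the left and the 23 case cells ranked after it; filled bars are Gfpt2-high cells and hatched bars are not. The first 2 case cells hold 43 and 32 UMIs, and 9 case cells hold 1 UMI each.

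The case cells differed widely in Mmp3, as the plot of UMIs per cell shows. The highest cells held 43, 32, 18, 17, 9, 8 and 7 UMIs, 12 cells held 3 or more and 9 cells held 1. The first 2 cells held 45.5% of the case UMIs. Without the 7 highest cells the case level was 31 UMIs or 4.30 CPM, and the log2 ratio dropped from 3.95 to 1.55, so the size of the ratio rests on a handful of cells. Without its single cell the control level was 0. The interval above treats UMIs as independent and is therefore too narrow for so uneven a gene. Gfpt2-high cells, which carry much RNA of the hexosamine enzyme gene Gfpt2, made up 11 of the 23 case cells. Of all 1317 case fibroblast-like cells, 424 were Gfpt2-high. The single control cell was Gfpt2-high too, as were 186 of the 662 control cells. With so few Mmp3 cells, nothing about Gfpt2 is read from these counts.

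Mmp19, a metalloproteinase of broad substrate range, was rare. Fibroblast-like cells held 21 UMIs in control and 38 in case, or 2.80 CPM (1.74 to 4.29) and 5.24 CPM (3.71 to 7.19), a log2 ratio of 0.90 (0.10 to 1.75). The UMIs were spread over 20 control and 36 case cells. The single-library intervals overlapped, and with each cell weighted equally the log2 ratio was 0.44, inside 1.5-fold. VSMC-like cells held 8 and 3 UMIs, endothelial-like cells 0 and 1, and macrophage-like and Schwann-like cells 0 in both libraries.

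Timp2 was lower in case in both large classes. Fibroblast-like cells held 1936 CPM in control (1905 to 1968) and 1077 CPM in case (1053 to 1101), 1.80-fold lower. VSMC-like cells held 328 CPM (318 to 338) and 203 CPM (196 to 210.4), 1.62-fold lower, with a log2 ratio of -0.69 (-0.76 to -0.62) that TMM scaling moved to -0.56, inside the limit. The cells between the VSMC and fibroblast gates had the ratio in the same direction, at -1.12 (-1.27 to -0.98). At 2000 UMIs per cell, Timp2 was seen in 90.1% of control and 75.0% of case fibroblast-like cells and in 47.9% and 32.6% of VSMC-like cells. The difference was present in the share of cells as well as in the sum. Endothelial-like cells had 182 and 133 CPM, a log2 ratio of -0.45 (-0.83 to -0.07). Macrophage-like cells held 258 and 337 CPM, a log2 ratio of 0.38 (0.04 to 0.73). Schwann-like cells held 469 CPM (346 to 622) and 374 CPM (292 to 472). None of these 3 classes passed 1.5-fold, although the endothelial ratio did with each cell weighted equally (-0.83) and without the highest doublet scores (-0.84).

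Timp1, a secreted inhibitor that is induced by inflammation and growth factors in many tissues, was lower in case in fibroblast-like cells and higher in macrophage-like cells. Fibroblast-like cells held 1086 CPM in control (1063 to 1109.9) and 677 CPM in case (658 to 696), 1.61-fold lower, with a log2 ratio of -0.68 (-0.73 to -0.63). Under TMM scaling this was -0.59, just past the limit. VSMC-like cells held 184 and 174 CPM, a log2 ratio of -0.08 (-0.17 to -0.004) that turned to 0.04 under TMM scaling. Macrophage-like cells held 28 control UMIs in 13 cells and 91 case UMIs in 35 cells, or 67.0 CPM (44.5 to 96.8) and 150.4 CPM (121 to 185), 2.25-fold higher in case (1.46 to 3.56). The case UMIs alone met the minimum of 50. The Dcn reckoning gave 65.7 CPM of fibroblast-derived Timp1 in the control macrophage-like cells, as much as was measured, and 25.3 CPM in case. At 2000 UMIs per cell the shares of macrophage-like cells with Timp1 were 14% and 15.5%.

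Timp3, the matrix-bound inhibitor, differed little between the groups in the large classes. VSMC-like cells held 449 CPM in control (438 to 461) and 498 CPM in case (487 to 509.7), and fibroblast-like cells 573 (556 to 590.4) and 599 (581 to 617). VSMC-like cells supplied 49.3% of all Timp3 UMIs in control and 49.2% in case. Endothelial-like cells held 768 CPM (692 to 849.8) in control and 520 CPM (481 to 561) in case, a log2 ratio of -0.56 (-0.75 to -0.38). This call depended on the setting: the ratio was past 1.5-fold with named clusters (-0.62) and with the stricter gate (-0.64), and inside it with TMM scaling (-0.30) and without the 2 cells of each library with most Timp3 (-0.34). Macrophage-like cells held 124 CPM (92.9 to 163) and 95.9 CPM (72.8 to 124). The 18 control and 46 case Schwann-like cells held 1593 CPM and 1664 CPM, but 82 of the 163 control UMIs lay in 1 cell and 105 in 2 cells. Without the 2 top cells of each library the Schwann-like levels were 675 CPM in control and 1386 CPM in case, so the control value rests on those cells. The same class held 1280.4 CPM of Timp1 in control and 584 CPM in case.

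Adamts1 was spread over muscle and adventitial cells. VSMC-like cells held 245 CPM in control (237 to 254) and 312 CPM in case (303 to 321), a log2 ratio of 0.35 (0.28 to 0.41), and fibroblast-like cells 315 and 343 CPM, a log2 ratio of 0.12 (0.04 to 0.20). Endothelial-like cells held 46 control UMIs in 29 of 59 cells and 244 case UMIs in 110 of 242 cells. This was 94.9 CPM (69.5 to 127) against 191 CPM (168 to 217), 2.02-fold higher in case (1.47 to 2.83). Only the case UMIs of Adamts1 met the minimum on their own. The shares at 2000 UMIs per cell were 16.9% and 26.8%. The RNA reckonings, by Dcn for fibroblasts and by Tagln for VSMCs, gave 8.18 and 23.2 CPM in control and 18.8 and 35.2 CPM in case. The part of carried-over RNA in the Adamts1 ratio was not tested. Macrophage-like cells held only 14 and 25 Adamts1 UMIs, or 33.5 CPM (18.3 to 56.2) and 41.3 CPM (26.7 to 61.0). Schwann-like cells held 205 CPM (127 to 314) and 242 CPM (177 to 323).

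Adamts4 came mostly from fibroblast-like cells, which supplied 92.8% of its UMIs in control and 80.7% in case. Its level there was 800.4 CPM in control (780.3 to 821) and 701 CPM in case (682 to 720.3), a log2 ratio of -0.19 (-0.25 to -0.14). VSMC-like cells held 11.9 CPM (10.1 to 13.9) in control and 20.7 CPM (18.4 to 23.1) in case, a log2 ratio of 0.80 (0.52 to 1.09). Fibroblast RNA sized by Dcn would bring 11.6 CPM to these control cells and 13.1 CPM to the case cells, so the control level was at that background. The shares of VSMC-like cells with Adamts4 at 2000 UMIs were 2.46% in both libraries. Within VSMC-like cells the case Adamts4 stood at 39.6 CPM (30.5 to 50.7) in Notch1-positive cells, against 10.1 CPM (6.66 to 14.7) in Spp1-high cells, while the control levels of these sub-gates were 11.6 CPM and 13.6 CPM. The VSMC-like cells in neither sub-gate, 855 control and 1845 case cells, held 11.5 and 20.5 CPM, a log2 ratio of 0.84 (0.50 to 1.19), so the class ratio was also present outside the Notch1-positive cells. The UMIs were uneven, with 39 of the 308 case UMIs in 1 cell and 59 in 2 cells. Without the 2 top cells of each library the log2 ratio was 0.79 in the class, and the Notch1-positive case cells held 20.9 CPM. The class ratio depended on the setting: 0.59 with each cell weighted equally, barely past 1.5-fold, and 1.24 with named clusters. Macrophage-like cells held 16 and 10 Adamts4 UMIs, or 38.3 CPM (21.9 to 62.1) and 16.5 CPM (7.93 to 30.4), and Schwann-like cells 6 and 23 UMIs, of which 5 and 20 lay in 2 cells. Endothelial-like cells held 16 control UMIs in 6 cells and 116 case UMIs in 55 cells, or 33.0 CPM (18.9 to 53.6) and 91.0 CPM (75.2 to 109), 2.75-fold higher in case (1.63 to 4.98). The case UMIs alone met the minimum, and 75.0% of the control UMIs lay in 2 cells. Without the 2 top cells of each library the control kept 4 UMIs and the log2 ratio went from 1.46 to 3.27, so its size rests on those cells. The Dcn reckoning gave 20.8 CPM in control and 38.5 CPM in case.

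**Figure D3:**
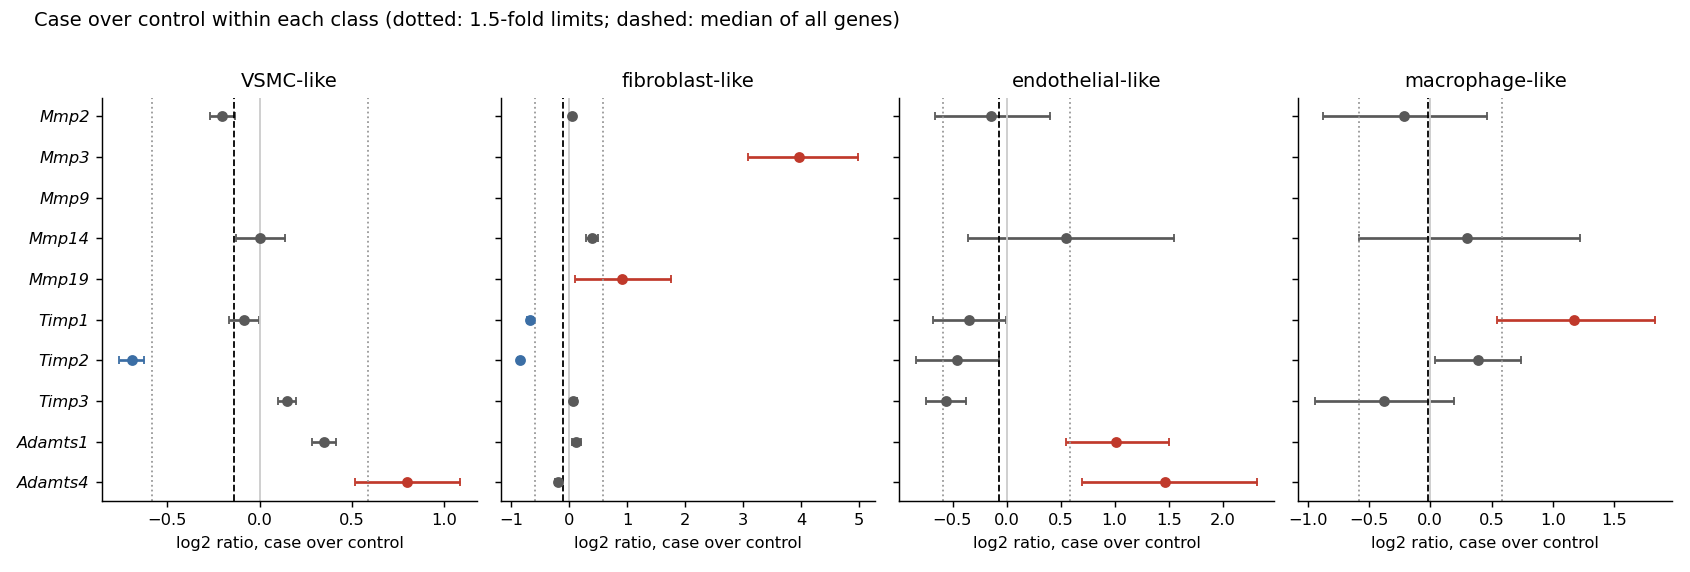
Log2 ratio of case over control for each gene with at least 50 UMIs in the class, with bars for the exact 95% interval of counting error (red past 1.5-fold higher, blue past 1.5-fold lower, grey within). Mmp3 in fibroblast-like cells reaches 3.95, and Timp2 stands at -0.69 in VSMC-like and -0.85 in fibroblast-like cells, left of the median of all genes.

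The endothelial-like cells were of different make in the groups. Cells with Plvap or Emcn, genes of small vessels, were 16 of 59 in control and 118 of 242 in case. Adamts4 was higher in these cells than in the rest in both libraries, with 118 CPM (64.4 to 198) against 5.47 CPM (0.662 to 19.7) in control and 148 CPM (119 to 183) against 43.1 CPM (29.1 to 61.6) in case. Within the Plvap or Emcn cells the log2 ratio of Adamts4 was 0.33 (-0.49 to 1.26), and in the other endothelial-like cells it was 2.98 (1.00 to 6.09) from 2 control UMIs. However, 12 of the 14 control UMIs of the Plvap or Emcn cells lay in 2 cells. Without the 2 top cells of each library, the Plvap or Emcn cells held 19.7 CPM in control and 132 CPM in case. Their log2 ratio was then 2.75, so the control level and the ratio rest on those cells. Adamts1 had like case levels in both sub-gates, 191 CPM each, against 75.8 and 101 CPM in control. The part of this mix in the class ratios was not tested.

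Fibroblast-like cells were split in the same manner into Gfpt2-high cells, then Postn-positive, Pi16-positive and other cells. Gfpt2-high cells numbered 186 in control and 424 in case, Pi16-positive cells 330 and 344, other cells 144 and 470, and Postn-positive cells 2 and 79. Postn encodes periostin, a matricellular protein of healing tissue, and Pi16 marks adventitial fibroblasts. The shares of these cells differed between the libraries, and the genes of the gates were measured in the same cells, so the shares are given as counts only.

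**Figure D4:**
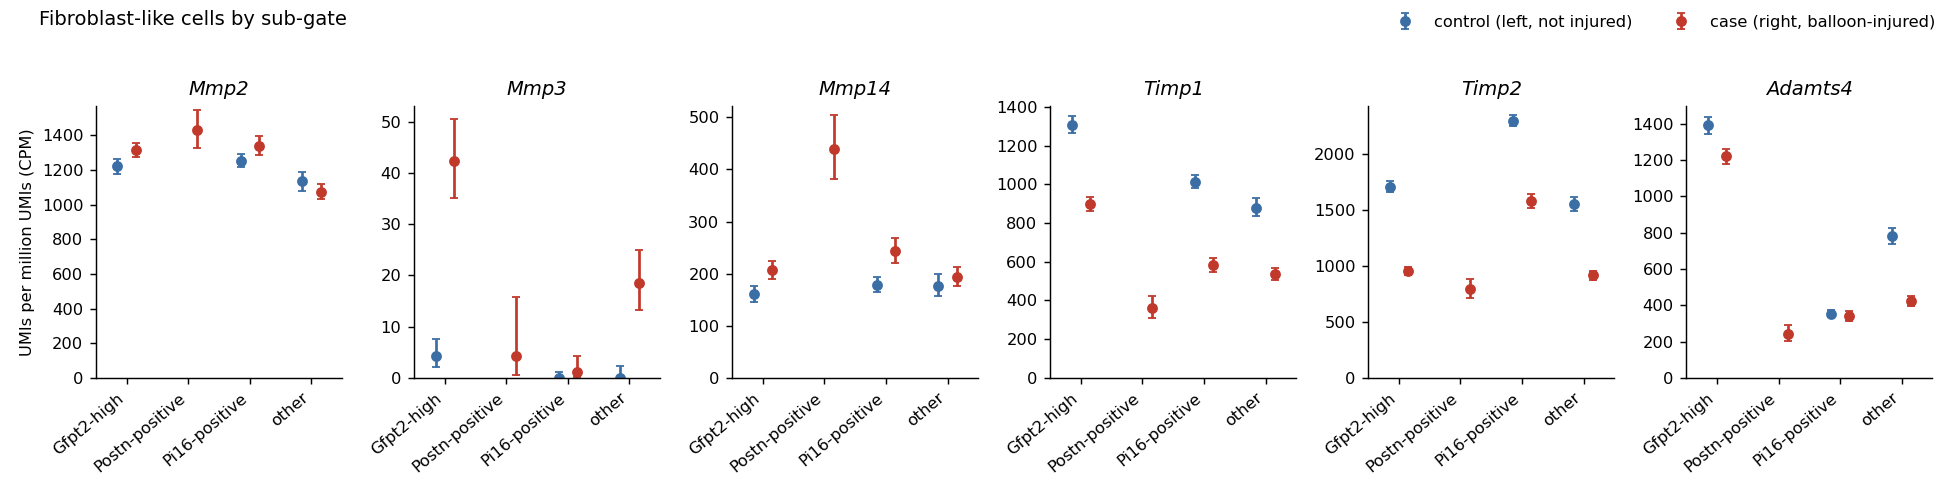
Levels of 6 genes in 4 sub-gates of fibroblast-like cells (CPM, exact 95% Poisson intervals, blue control and red case). The 2 Postn-positive control cells are left out; Timp1 and Timp2 are lower in case in the other 3 sub-gates, and Adamts4 is highest in Gfpt2-high cells of both libraries.

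Timp2 and Timp1 were lower in case within every sub-gate that held enough cells. The log2 ratio of Timp2 was -0.84 in Gfpt2-high, -0.54 in Pi16-positive and -0.76 in other cells, and that of Timp1 was -0.54, -0.80 and -0.71. With the 2 Postn-positive control cells left out (3252 CPM, 2265 to 4523), Timp2 was highest in Pi16-positive cells in both libraries, at 2294 CPM and 1576 CPM. In case, Timp1 ranged from 898 CPM in Gfpt2-high cells to 363 CPM (310.2 to 423) in Postn-positive cells. The Postn-positive case cells also held the most Mmp14, 439 CPM (381 to 504), against 207 CPM in Gfpt2-high, 244 CPM in Pi16-positive and 193 CPM in other case cells. They held 1431 CPM of Mmp2 (1324 to 1545), whose interval overlapped that of the Gfpt2-high and Pi16-positive case cells, at 1314 and 1338 CPM.

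Between Gfpt2-high and Pi16-positive cells Adamts4 differed more than it did between the libraries within either of them. Gfpt2-high cells held 1391 CPM in control (1346 to 1438) and 1220.0 CPM in case (1179.5 to 1262), while Pi16-positive cells held 354 CPM (334 to 374) and 340.1 CPM (313 to 369). In other fibroblast-like cells Adamts4 was 779 CPM in control and 421 CPM in case, lower past 1.5-fold. The log2 ratio there was -0.89 (-1.01 to -0.76), and -0.87 without the 2 top cells of each library. Mmp3 in case stood at 42.3 CPM (35.0 to 50.6) in Gfpt2-high cells, 18.5 CPM (13.3 to 25) in other cells and 1.17 CPM (0.142 to 4.24) in Pi16-positive cells. However, 2 cells held 75 of the 119 Gfpt2-high UMIs, and 2 cells held 26 of the 42 UMIs of the other cells. Without those cells the levels were 15.7 and 7.08 CPM, so this contrast rests on few cells. The log2 ratio of Timp3 was 0.52 (0.42 to 0.63) in Gfpt2-high cells, 0.21 (0.10 to 0.32) in Pi16-positive cells and -0.65 (-0.77 to -0.53) in other cells, which became -0.47 without the 2 top cells of each library.

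Several of these genes also differed with the level of the genes that tissue digestion can induce, such as Fos, Junb and Hspa1b. In fibroblast-like cells Adamts4, Timp1, Adamts1, Mmp2 and Mmp3 were lower where these induced genes were highest. Fibroblast-like cells were ranked by the summed UMIs of 13 such genes per 10000 UMIs of the cell. They were then cut in 3 parts of equal size. The median depth of the lowest and highest part was 13638 and 8991 UMIs per cell in control and 5857 and 4357 in case. Hspa1b, a heat shock gene, made up 8541 CPM of the list in control and 10462 CPM in case, so the rank leans on this gene. In the lowest and highest part, Adamts4 stood at 1205 and 265 CPM in control and at 1141 and 166 CPM in case, and Timp1 at 1359 and 689 CPM in control and 848 and 365 CPM in case. Adamts1 stood at 478 and 170 CPM in control and at 391 and 276 CPM in case. For Mmp2 these levels were 1290 and 987 CPM in control and 1397 and 978 CPM in case. Mmp14 stood at 184 and 157 CPM in control and at 238 and 201 CPM in case. Mmp3, which few cells carried, stood at 49.3 and 2.45 CPM in case, from 130 and 5 UMIs. All 11 of its control UMIs lay in the lowest part. The part of digestion in the Mmp3 ratio was not tested. Timp2 was 1879 and 1622 CPM in control and 1010 and 971 CPM in case, so its libraries stayed apart in either part. The middle part held the most Timp2, 2263 CPM in control and 1230 CPM in case. VSMC-like cells were cut in the same way. There Adamts1 was highest in the highest part, at 282 CPM in control and 380.1 CPM in case. The lowest part held 234 and 290 CPM, and the middle part held the least, 221 and 272 CPM. From the lowest to the highest part, Adamts4 went from 14.1 to 4.39 CPM in control and from 34.7 to 13.8 CPM in case. The summed level of the list in fibroblast-like cells was 19172 CPM in control and 21152 CPM in case, and in VSMC-like cells 16377 and 15983 CPM. In endothelial-like cells it was 29905 CPM in control and 18679 CPM in case, with 6 of 13 genes lower past 1.5-fold, among them Fos at a log2 ratio of -1.22. The part of digestion in the endothelial differences was not tested.

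MMP14 and TIMP2 act on MMP2 as one complex at the cell surface, so their RNAs were also set against each other within the same cells, which needs no scaling between libraries. For every 100 Timp2 UMIs, fibroblast-like cells held 62.8 Mmp2 UMIs in control (61.2 to 64.5) and 116 in case (113 to 119.8), and 8.88 Mmp14 UMIs in control (8.38 to 9.40) and 21.0 in case (19.9 to 22.1). VSMC-like cells held 79.0 and 111 Mmp2 UMIs and 20.2 and 32.8 Mmp14 UMIs. The intervals of the 2 libraries were apart in each of these 4 pairs. For Mmp2, whose own log2 ratios were 0.04 and -0.20, the difference restates that of Timp2 and is no separate result. The same holds for Mmp14 in VSMC-like cells, where its own log2 ratio was 0.003. In fibroblast-like cells the log2 ratio was 0.39 for Mmp14 and -0.85 for Timp2, so the larger part of that difference restates Timp2. In endothelial-like cells the values for Mmp2 were 50.0 (34.0 to 72.6) and 62.1 (48.2 to 79.7), and for Mmp14 14.8 (7.57 to 26.6) and 29.6 (21.1 to 40.8). In macrophage-like cells they were 33.3 and 22.1 for Mmp2 and 16.7 and 15.7 for Mmp14. These overlapped. Adamts4 and Adamts1 were also set against Timp3. Per 100 Timp3 UMIs, the fibroblast-like class held 139.7 Adamts4 UMIs in control (134.3 to 145.3) and fewer in case, 117.0 (112.4 to 121.9). Adamts4 was higher in case for VSMC-like (2.65 and 4.15) and endothelial-like cells (4.30 and 17.5), with intervals apart. So was Adamts1, at 54.6 and 62.6 and at 12.4 and 36.8. These values restate log2 ratios given above and are no separate result. In VSMC-like cells those were 0.80 for Adamts4, 0.35 for Adamts1 and 0.15 for Timp3. In endothelial-like cells they were 1.46, 1.01 and -0.56. The control Adamts4 level in VSMC-like cells was at the Dcn background. Of the 16 control Adamts4 UMIs in endothelial-like cells, 12 lay in 2 cells. Fibroblast-like Adamts1 (55.0 and 57.3) and both genes in the macrophage-like class had overlapping intervals. The values count RNA and are not ratios of proteins.

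**Figure D5:**
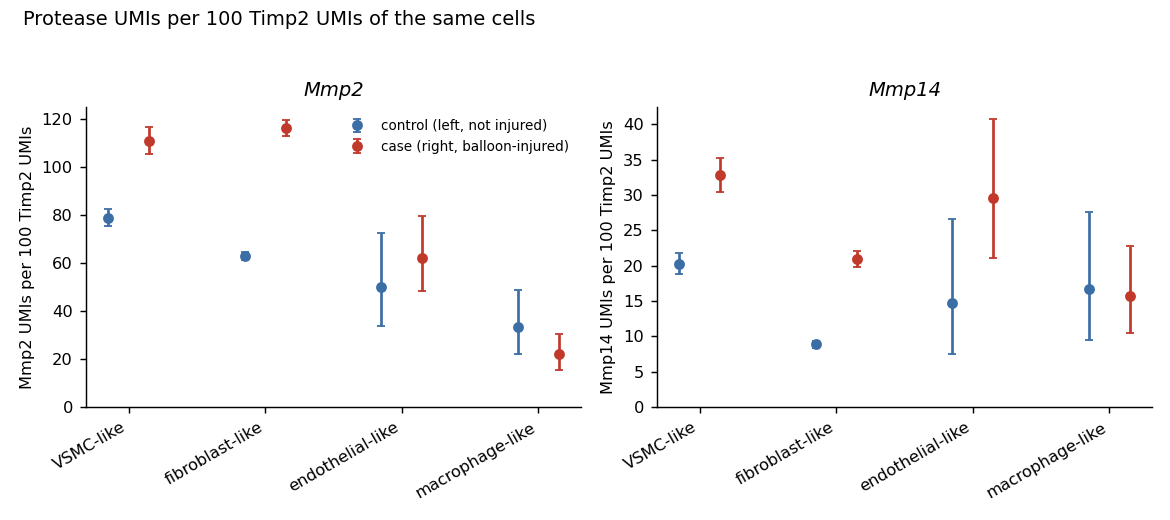
Mmp2 (left) and Mmp14 (right) UMIs for every 100 Timp2 UMIs in the same cells, by class, with exact 95% intervals of counting error (blue control, red case). In VSMC-like and fibroblast-like cells the case points lie above the control points with intervals apart, and in the other classes the intervals overlap.

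All 3 RNAs were more often seen in the same cell in the fibroblast-like than in the VSMC-like class. At 2000 UMIs per cell, Mmp2, Mmp14 and Timp2 were seen together in 152 of 647 control fibroblast-like cells (23.5%, 20.3 to 27.0) and in 263 of 1264 case cells (20.8%, 18.6 to 23.2), beside 20.7% and 18.7% from the product of their single shares. In VSMC-like cells they were seen together in 28 of 1055 control cells (2.65%, 1.77 to 3.81) and 30 of 2522 case cells (1.19%, 0.804 to 1.69). The products there were 2.30% and 1.12%. Each interval included its product, so nothing beyond the single shares is read from the difference between the classes.

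The wider set of matrix-degrading genes was counted from lists of the same pathway, and each count stands beside the share of all genes past 1.5-fold in that class: 6.64% higher and 15.9% lower in fibroblast-like, 6.22% and 16.2% in VSMC-like, 18.4% and 23.7% in endothelial-like and 15.2% and 13.6% in macrophage-like cells. The lists are short, so nothing particular to a list is read from its count. Of 15 other metalloproteinases listed, 3 had enough UMIs in fibroblast-like cells, and Mmp23 (a log2 ratio of -0.70) and Mmp27 (-0.88) were lower past 1.5-fold. In VSMC-like cells 3 had enough, and Mmp23 was lower (-0.81). Of 17 other ADAMTS proteases, 8 had enough UMIs in fibroblast-like cells. There Adamts7, which cuts cartilage oligomeric matrix protein, had 18 and 50 UMIs (1.52) and passed the minimum through its case cells, Adamts12 stood at 43.5 CPM in control and 73.1 CPM in case (0.75), and Adamts8 at 35.5 and 12.3 CPM (-1.53). In VSMC-like cells 0 of 7 passed. In endothelial-like cells Adamts9, a protease of vascular cells, had 5 control and 61 case UMIs, a log2 ratio of 2.21 (0.91 to 3.89), and it too passed the minimum only through case cells.

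ADAM proteases, which shed membrane proteins, had 0 of 6 past the limit in VSMC-like cells. In fibroblast-like cells 1 of 6 passed, Adam19 at 0.59 (-0.01 to 1.19), an interval that included no difference. It had 42 control and 61 case UMIs, of which the case UMIs alone met the minimum. In endothelial-like cells 2 of 3 were lower, Adam10 at -0.94 and Adam17 at -0.64, and in macrophage-like cells 1 of 2, Adam17 at -0.67.

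Among 14 activators, receptors and other inhibitors, fibroblast-like cells had 12 with enough UMIs, 3 higher and 2 lower. Plau, which encodes urokinase, the activator of plasminogen, stood at 5.88 CPM in control and 23.9 CPM in case (a log2 ratio of 2.02, 1.54 to 2.53). It had 44 control and 173 case UMIs, of which the case UMIs alone met the minimum. Thbs2, a thrombospondin that helps clear MMP2, stood at 41.8 and 165 CPM (1.98), and Thbs1 at 13.5 and 37.0 CPM (1.45). Bsg, the metalloproteinase inducer basigin, was lower in fibroblast-like (-0.79), VSMC-like (-0.76) and endothelial-like cells (-0.66). Reck, a membrane-anchored inhibitor of metalloproteinases, was lower in the same classes, at -0.65, -0.60 and -1.28. In VSMC-like cells Plau was higher on few UMIs, 25 in control and 53 in case (0.90), of which the case UMIs alone met the minimum, and Serpine2 (-0.74), which inhibits serine proteases, was lower. In endothelial-like cells 1 of 10 was higher and 3 were lower. There Plaur, the urokinase receptor gene, stood at 61.9 and 151 CPM (1.29) and Lrp1, a receptor that takes up proteases, at -0.59. Plaur had 30 control and 193 case UMIs, so its case UMIs alone met the minimum. In macrophage-like cells 0 of 5 passed. Of 6 cathepsins, which are mostly lysosomal proteases, Ctsd (-0.62) and Ctsk (-0.60) were lower in VSMC-like cells, 0 of 5 passed in fibroblast-like cells and 0 of 3 in endothelial-like cells, and Ctsl was higher in macrophage-like cells, at 1519 CPM in control and 2969 CPM in case (0.97).

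Genes with the most similar pattern were sought by Pearson correlation of log2(CPM + 10) over the 10 sums of class and library, among 4830 genes. Cells of a library share their depth and free RNA, so these values are descriptions. Adamts4 was most like Gfpt2 (r = 0.982), Sfrp2 (0.982) and Cpz (0.97), and Mmp2 most like Aspn (0.971), Ddr2 (0.958) and Cercam (0.953). Mmp14 was closest to Lum (0.963), Creb3l1 (0.95) and Col1a1 (0.943), and Timp2 to Ccn5 (0.939), Mup4 (0.938) and Serpinf1 (0.937). Timp1 was closest to Rrs1 (0.955), Add3 (0.939) and Riok1 (0.935), Timp3 to Tgs1 (0.979), Morf4l1 (0.944) and Snapc3 (0.943), and Adamts1 to Trim16 (0.942), Sec31a (0.932) and Akap12 (0.923). Mmp3, Mmp9 and Mmp19 had under 1000 UMIs and were not compared.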

How the data were processed

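Carotid arteries were digested with trypsin and collagenase and sequenced on the 10x Genomics platform. The authors deposited raw counts of UMIs for each gene in each barcode, written by Cell Ranger 3.1.0 per the file headers; the submitters' notes name the build Rnor_6.0 and Seurat. Whether depth had been equalised between libraries before deposit is not given in the sources used here. Barcodes were assigned to libraries by the number at their end, of which one has 5656 barcodes (case) and the other 3321 (control), the numbers the study gives before quality control. Barcodes were kept with at most 20% mitochondrial UMIs, log10 UMIs and log10 genes within 2 SD of the library mean, and a number of genes no further than 3 robust SD from the line fitted to UMIs. The genes and lists were chosen with earlier results of these data known.

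Classes needed at least 1000 UMIs per cell. They were endothelial-like with 3 or more of 8 endothelial markers, macrophage-like with 4 or more of 9, and Schwann-like with 3 or more of 5. Other cells with 50 or more marker UMIs per 10000 were VSMC-like when fibroblast markers made up at most 20% of the VSMC and fibroblast marker UMIs, fibroblast-like at 80% or more, and between otherwise; Col1a1 and Col3a1 were not used. These limits were chosen with the data in view. Levels were UMI sums per 1000000 UMIs of a class. With 1 library per group no test was run; intervals are exact at 95%, cover only the error of counting, and 3 counts were taken as the upper limit of a 0. All 10 genes were counted in every class, and of the other lists at most 4 genes per class past 1.5-fold by size. Scrublet called 42 control cells (1.55%) and 2 case cells (0.0407%), so it did not work in the case library, and doublets were left in. Clusters were made with scanpy 1.11.5 and leidenalg 0.10.2, sums and intervals with pandas 2.3.3, scipy 1.17.1 and numpy 2.4.6 in Python 3.11.15, figures with matplotlib 3.10.9, and TMM factors with edgeR 4.0.16 in R 4.3.3. The ratio steps were run on simulated independent Poisson counts, which lack the clumping of UMIs in few cells and any difference between libraries. That run therefore does not show that the intervals suit the real counts. Alternatives covered the barcode filter, the classes, doublets, scaling, the minimum of 50 UMIs and the cells with most UMIs of a gene. For 1 list, a result in VSMC-like cells is not reported here.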

Additional observations from a re-analysis of the deposited data

Results flagged for a closer look

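Timp1 went in opposite directions in different classes of the same libraries: its log2 ratio of case over control was 1.17 in macrophage-like cells (28 control and 91 case UMIs) and -0.68 in fibroblast-like cells (8133 and 4905 UMIs). With 1 library per group, the difference between the classes was not tested.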

How the results depend on the processing

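No paired analysis was possible because each group is 1 library. Over the alternatives, 282 log2 ratios of single genes moved by less than their counting interval, 34 moved further and 0 of the called ratios changed sign. The 282 include the setting with no minimum on UMIs, which cannot change the ratio of a single gene. They also include the setting without Scrublet doublets, which left out only 42 control and 2 case cells. Of the counts of genes past 1.5-fold, 68 were within 1.5 times the reported count and 14 were not. In VSMC-like cells the lower count of 1 became 0 with TMM scaling and 3 with no minimum on UMIs. In fibroblast-like cells the higher count of 2 became 1 under the stricter gate, with each cell weighted equally, and without the 7 cells with most Mmp3 (chosen after seeing the data); under the stricter gate Mmp19, and without those cells Mmp3, had under 50 UMIs. In endothelial-like cells the lower count of 0 became 1 with named clusters and with the stricter gate (Timp3, at -0.62 and -0.64), and 2 with each cell weighted equally and without the highest doublet scores (Mmp2 and Timp2; added after seeing the data). In macrophage-like cells the higher count of 1 became 2 with every barcode and with each cell weighted equally, and the lower count of 0 became 1 under the stricter gate, with no minimum on UMIs and without the highest doublet scores. Log2 ratios ranged from 1.55 to 4.69 for Mmp3, from -0.95 to -0.71 for Timp2 and from -0.74 to -0.59 for Timp1 in fibroblast-like cells, from -0.71 to -0.56 for Timp2 in VSMC-like cells, from 0.82 to 1.28 for Adamts1 and from 1.35 to 3.27 for Adamts4 (the last without the 2 cells of each library with most of its UMIs, chosen after seeing the data) in endothelial-like cells, and from 1.05 to 1.30 for Timp1 in macrophage-like cells. Leaving out those cells gave no ratio for Mmp3, since control then held 0. For Adamts4 in VSMC-like cells the log2 ratio ranged from 0.59 to 1.24. Calls also changed for Mmp14 in endothelial-like cells (0.55 as reported, -0.15 to 0.96) and in macrophage-like cells (0.30, 0.09 to 0.79), and there for Mmp2 (-1.29 to 0.31), Timp2 (0.28 to 0.62) and Timp3 (-1.21 to 0.04). The small endothelial-like and macrophage-like classes limit what counting can resolve.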

Other observations

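Mmp12, which encodes the macrophage elastase, lay under the minimum of 50 UMIs and was singled out after its values were seen. Macrophage-like cells held 39 Mmp12 UMIs in 10 of 107 case cells, 13 of them in 1 cell, or 64.5 CPM (45.8 to 88.1). The 44 control macrophage-like cells held 0, where a count of 0 allows up to 7.18 CPM. Over both libraries, the endothelial-like, VSMC-like and fibroblast-like classes together held 1.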
